A study of Mus musculus with 27 samples.

Results

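The aminoacyl-tRNA synthetase genes of the mouse were examined in CT26 tumors, taken from a list of 36 cytosolic and mitochondrial members by symbol. All 36 of the 36 were found among the 54752 genes of the count tables, each under 1 gene ID. They comprised 8 enzymes of the cytosolic multisynthetase complex, 12 other cytosolic enzymes and 16 mitochondrial enzymes. RNA-seq was done on 15 tumor samples, 5 from Mettl3 knockout (KO) tumors, 5 from Mettl14 KO tumors and 5 from control tumors. CT26, a mouse colon carcinoma line, received a Mettl3, a Mettl14 or a control guide RNA by retroviral transduction and was then injected under the skin of BALB/c mice, where it formed tumors. The study compared these tumors under treatment with antibody against PD-1, a checkpoint receptor of T cells. The labels' protocols list antibodies against PD-1 and CTLA-4 and IgG at 200 µg (10 mg/kg) between day 11 and day 23, and only the series' design text ties these samples to anti-PD-1. Mettl14 KO samples are so titled, while their genotype field names Mettl4. The labels give neither the age of the mice nor the animal behind each sample, so p-values measure the spread between samples. Host cells in the tumors carried no guide.

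Aminoacyl-tRNA synthetases join each amino acid to its transfer RNA, the step that supplies charged tRNA to the ribosome. Separate genes serve the cytosol and the mitochondrion for most amino acids, while Gars and Kars supply both compartments from a single gene. Several cytosolic genes are targets of ATF4, the transcription factor of amino acid shortage, whereas Wars, the cytosolic tryptophanyl-tRNA synthetase, is known as an interferon-induced gene. The Mettl3 and Mettl14 proteins pair as the enzyme that methylates adenosine in messenger RNA (m6A).

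Promoter sequences are given first, as the stretches in which the ATF4 and interferon elements of the background would lie. Of the 36 members, 26 had an entry in the RefSeq promoter table of build GRCm38.p6, which holds 250 bases before to 50 bases after a gene's start. Wars was among the 10 members not used in the motif search. Both strands were searched, and capitals below mark the matches. The ATF4 element TGATGNAA was found in 5 of 12 cytosolic promoters (Aars, Gars, Iars, Tars and Yars) and in 0 of 14 mitochondrial promoters, against 3.97% of all 32851 promoters in the table. The ETS core CCGGAAG was found in 8 of 26 member promoters, against 8.86% of all. The NRF1-like palindrome, GCGC followed by any 2 bases and GCGC, was found in 5 of 26 member promoters, against 6.23% of all. The interferon motifs were TTCNNNGAA (GAS), in 3 of 26 member promoters against 8.3% of all, and GAAA followed by any 2 bases and GAAA (ISRE), in 1 of 26 against 3.44% of all. A match is only a description of the letters, not a site of binding.

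The promoters printed, all on the plus strand, are those of Aars and Iars, which hold the ATF4 element, and those of Mars2, Nars2 and Rars2, the mitochondrial genes that fell in Mettl3 KO tumors. No 2 of the marked matches overlap.
Aars chr8:111033592-111033891: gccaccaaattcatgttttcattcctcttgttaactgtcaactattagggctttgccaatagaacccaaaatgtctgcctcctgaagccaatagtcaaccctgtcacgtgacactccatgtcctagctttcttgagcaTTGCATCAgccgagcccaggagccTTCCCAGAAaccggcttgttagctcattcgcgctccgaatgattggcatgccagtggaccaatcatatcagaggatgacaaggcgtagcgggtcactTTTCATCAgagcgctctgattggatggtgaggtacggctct
Iars chr13:49681880-49682179: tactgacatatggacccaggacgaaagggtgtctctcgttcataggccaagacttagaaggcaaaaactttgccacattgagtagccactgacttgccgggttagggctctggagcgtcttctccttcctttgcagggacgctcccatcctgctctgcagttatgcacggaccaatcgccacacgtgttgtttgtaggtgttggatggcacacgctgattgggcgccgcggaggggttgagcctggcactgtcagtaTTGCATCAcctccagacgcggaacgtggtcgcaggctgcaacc
Mars2 chr1:55236927-55237226: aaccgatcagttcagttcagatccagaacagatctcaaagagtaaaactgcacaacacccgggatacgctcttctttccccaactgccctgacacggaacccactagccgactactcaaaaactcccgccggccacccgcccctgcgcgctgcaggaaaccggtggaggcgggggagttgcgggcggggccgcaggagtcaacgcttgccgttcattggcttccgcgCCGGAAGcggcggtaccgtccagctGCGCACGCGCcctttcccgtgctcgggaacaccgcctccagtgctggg
Nars2 chr7:96951277-96951576: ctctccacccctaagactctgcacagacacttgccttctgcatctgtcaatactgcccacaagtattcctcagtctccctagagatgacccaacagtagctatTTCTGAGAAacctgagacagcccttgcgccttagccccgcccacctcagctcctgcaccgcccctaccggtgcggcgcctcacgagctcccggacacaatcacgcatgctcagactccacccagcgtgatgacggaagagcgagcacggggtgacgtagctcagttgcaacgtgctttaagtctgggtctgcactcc
Rars2 chr4:34614707-34615006: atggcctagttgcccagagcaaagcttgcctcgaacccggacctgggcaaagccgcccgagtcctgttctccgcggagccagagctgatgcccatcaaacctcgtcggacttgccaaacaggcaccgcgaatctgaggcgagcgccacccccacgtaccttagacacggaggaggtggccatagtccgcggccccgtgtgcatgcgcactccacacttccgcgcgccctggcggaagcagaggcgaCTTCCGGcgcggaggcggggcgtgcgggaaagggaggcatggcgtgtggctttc
In Aars, the ATF4 element was matched 112 bases before the start and again 9 bases after it, with the GAS letters 88 bases before the start. In Iars the element was matched 7 bases after the start. Mars2 held the ETS core 23 bases before the start and the NRF1-like palindrome 2 bases after it, Rars2 held the ETS core 4 bases before it, and Nars2 held the GAS letters 147 bases before it.

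Libraries had 4.35 to 20.98 M reads (M stands for mega) on genes, 4.35 to 9.33 M in Mettl3 KO, 6.45 to 17.0 M in Mettl14 KO and 5.52 to 20.98 M in control. The members took 0.184% to 0.706% of these reads, or 9572 to 117781 reads a library. Reads aligned outside genes made up 60.2% to 78.0% of uniquely aligned reads in Mettl3 KO, 53.6% to 65.9% in Mettl14 KO and 44.3% to 78.6% in control libraries. Control replicate 1, at 78.6%, stood apart from the other 4 controls (44.3% to 53.8%), and results that rest on it are given without it below. The targeted genes checked the labels only weakly. Mettl3 averaged 13.8 ± 1.45 CPM (reads per 1000000 reads on genes, after scaling) in its own knockout, against 19.5 ± 3.59 CPM in control (SD, n = 5 each; edgeR adjusted p = 0.0545), and the groups overlapped. Mettl14 averaged 61.6 ± 12.4 CPM in its own knockout, against 69.5 ± 11.7 CPM in control (edgeR adjusted p = 0.735), also with overlap, and at 54.9 ± 16.1 CPM it was lower in Mettl3 KO tumors than in its own knockout.

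Levels of the members were compared per length of exon, as CPM per kb, with the exons of all annotated transcripts of a gene merged into 1 length. In control tumors the median of the 20 cytosolic members was 35.3 CPM per kb and that of the 16 mitochondrial members 3.51 CPM per kb. The same medians were 24.5 and 2.88 CPM per kb in Mettl3 KO and 35.8 and 3.14 CPM per kb in Mettl14 KO tumors. Gars (glycine) stood first in control tumors at 94.0 ± 27.3 CPM per kb, then Rars (arginine), Nars (asparagine), Lars (leucine) and Lars2. Below these, in falling order, were Sars, Hars, Tars, Iars, Eprs, Kars, Mars, Aars, Farsb, Dars, Vars, Wars, Cars, Qars, Rars2, Tars2, Farsa, Iars2, Yars, Hars2, Yars2, Wars2, Fars2, Vars2, Mars2, Nars2, Aars2, Ears2, Cars2, Sars2 and Pars2. Neighbours in this order lay closer than the sum of their SDs, with the exceptions of Cars over Qars (22.3 and 12.6 CPM per kb) and Yars2 over Wars2 (6.42 and 3.70 CPM per kb). Wars was 17th of 36 at 22.4 ± 8.81 CPM per kb, and Pars2 (proline) was last at 1.72 ± 0.37 CPM per kb. For 13 pairs of genes matched by symbol, as Lars and Lars2, the cytosolic gene was the higher in control tumors in all 13. Ears2, Pars2 and Fars2 were not paired, since Eprs, Farsa and Farsb do not match them by symbol. The ratio ran from 1.25 for leucine (Lars over Lars2) to 22.0 for serine (Sars over Sars2), and was 6.05 for tryptophan. Lars2 varied far more than any other member in control tumors, 52.3 ± 52.8 CPM per kb.

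**Figure D1:**
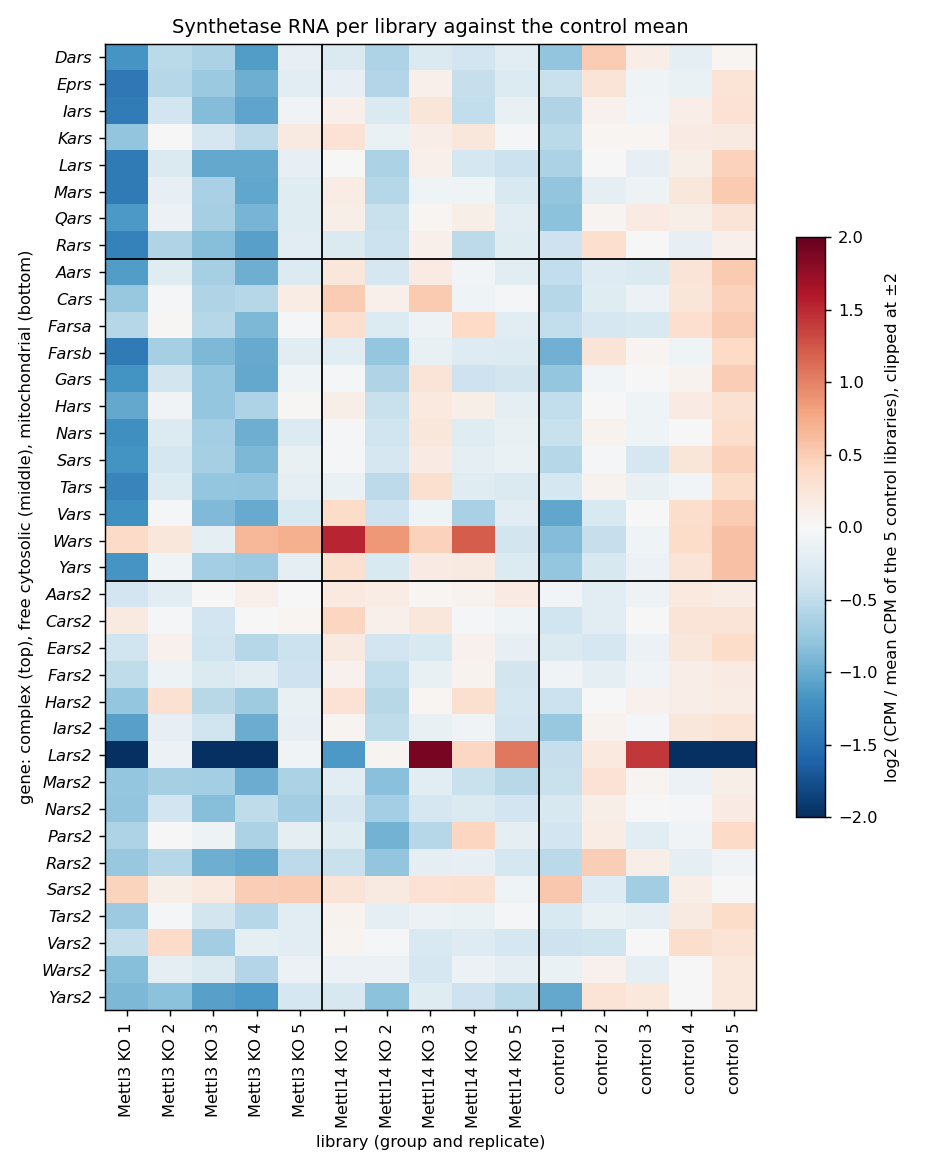
Level of each of the 36 synthetase genes (rows) in each of the 15 libraries (columns), as log2 of CPM over the mean CPM of the 5 control libraries, clipped at ±2. Mettl3 KO replicates 1, 3 and 4 and control replicate 1 are blue for most cytosolic genes, while Wars is red in 4 of 5 libraries of each knockout, reaching 222 CPM in Mettl14 KO replicate 1.

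In Mettl3 KO tumors, 3 of the 36 members fell against control and none rose, and all 3 were mitochondrial: Mars2, Nars2 and Rars2, which charge tRNA with methionine, asparagine and arginine in the mitochondrion. Over all 21427 genes tested, 1.24% passed the same test (edgeR, adjusted p under 0.05), 0.835% as lower and 0.406% as higher. The log2 fold change was below 0 for 34 of 36 members, against 55.1% of all genes, and its median was -0.66 for the members and -0.14 for all genes. The median was negative under each scaling tried, at -0.56 and -0.46 under 2 others. Genes of high level were lower in general in this comparison: the median was -0.57 for genes of log2 CPM 7 to 9 and 0.95 for those of log2 CPM under 1. Set against the median of genes of like abundance, the members' median was -0.12, with 24 of 36 below it. An unadjusted p under 0.05 was found for 24 of 36 members and 32.3% of all genes. Reads on genes of the mitochondrial genome, none of them a member, made up 1.41% to 2.64% of gene reads in Mettl3 KO, 3.06% to 5.41% in Mettl14 KO and 3.53% to 8.85% in control libraries, with no overlap between Mettl3 KO and control. The part of this difference in the members' levels was not tested. In bulk tumor RNA, fewer cells of a type cannot be told apart from less RNA per cell.

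Mars2 (ENSMUSG00000046994, chr1:55237177-55248470, plus strand, mm10) had 22.1, 23.8, 23.5, 19.1 and 24.4 CPM in Mettl3 KO replicates 1 to 5. In control it had 27.7, 46.4, 39.3, 34.99 and 40.9 CPM. Every Mettl3 KO library lay below every control library. The log2 fold change was -0.80 (SE 0.14, edgeR adjusted p = 0.032). Against genes of like abundance it was -0.38.

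Nars2 (ENSMUSG00000018995, chr7:96951505-97064758, plus strand) had 13.3, 17.6, 12.9, 16.2 and 14.2 CPM in Mettl3 KO, against 18.5, 25.2, 23.2, 22.7 and 26.0 CPM in control. Here too the groups did not overlap, as in 1.68% of all genes tested on the lower side. No member lay wholly higher in Mettl3 KO, against 1.76% of all genes. The log2 fold change was -0.70 (SE 0.14, edgeR adjusted p = 0.047), on a depth of 58 to 174 reads in Mettl3 KO and 114 to 517 reads in control libraries. Its exons overlap those of C230038L03Rik on the other strand, so its count of reads there is uncertain.

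Rars2 (ENSMUSG00000028292, chr4:34614957-34660167, plus strand) had 19.8, 22.5, 16.9, 16.4 and 23.3 CPM in Mettl3 KO, against 23.0, 47.0, 36.1, 29.1 and 31.8 CPM in control. The 2 groups met at control replicate 1, whose 23.0 CPM lay under the highest Mettl3 KO library. Its log2 fold change was -0.81 (SE 0.17, edgeR adjusted p = 0.048).

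These 3 calls lay close to the threshold. None of the 3 was called when any library other than control replicate 1 was left out, 0 members being called in each of these 9 fits. Without control replicate 1, 20 members were called, 19 of them lower and 1 higher (Sars2, the mitochondrial seryl-tRNA synthetase, 0.70, edgeR adjusted p = 0.0194). In that fit 11625 of 22535 genes passed, 8162 of them as higher and 3463 as lower. The direction of Mars2, Nars2 and Rars2 was the same, at -0.38 or lower for Mars2 and -0.34 or lower for Nars2, in all settings tried.

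Among the cytosolic members, 0 of 20 passed the edgeR test in Mettl3 KO tumors, and 16 of 20 had an unadjusted p under 0.05. By DESeq2, 3376 of 10277 genes with an adjusted p passed, 3199 of them as lower and 177 as higher. It called 13 of these 20 and 17 of 34 members with an adjusted p, all lower. The 8 members of the multisynthetase complex had log2 fold changes of -0.83 to -0.32 with a median of -0.74. They are Dars (aspartate), Eprs (glutamate and proline), Iars (isoleucine), Kars (lysine), Lars, Mars (methionine), Qars (glutamine) and Rars. Lowest was Rars at -0.83 (SE 0.20, edgeR adjusted p = 0.052), then Eprs at -0.80 (SE 0.22, edgeR adjusted p = 0.053). The 12 other cytosolic members ranged from -0.85 (Farsb) to 0.33 (Wars) with a median of -0.68, and the 16 mitochondrial members from -1.16 (Lars2) to 0.30 (Sars2) with a median of -0.41.

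Farsb, the beta subunit of the phenylalanyl-tRNA synthetase, had 32.9, 55.3, 46.9, 43.3 and 75.7 CPM in Mettl3 KO, against 45.1, 104.5, 90.5, 82.2 and 114.6 CPM in control. Control replicate 1 lay among the Mettl3 KO libraries and the other 4 controls above all of them (log2 fold change -0.85, SE 0.25, edgeR adjusted p = 0.060). Its partner Farsa, the alpha subunit, was at -0.44 (SE 0.23, edgeR adjusted p = 0.196). Exons of Farsb overlap those of Sgpp2 on the other strand.

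Yars2, which charges mitochondrial tRNA with tyrosine, had 10.8, 11.5, 9.56, 9.15 and 15.8 CPM in Mettl3 KO, against 9.90, 24.4, 23.3, 20.0 and 23.4 CPM in control. Control replicate 1 was again among the knockout libraries, and the other 4 controls were above all of them. The log2 fold change was -0.89 (SE 0.23, edgeR adjusted p = 0.052), and without control replicate 1 it was -0.84 (edgeR adjusted p = 0.00208).

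Lars2, the mitochondrial leucyl-tRNA synthetase (chr9:123366927-123462666, plus strand), showed the largest fold change of the members in Mettl3 KO tumors and the widest spread. It had 128, 534, 121, 77.9 and 554 CPM in Mettl3 KO, 263, 605, 2152, 774 and 1198 CPM in Mettl14 KO tumors, and 422, 664, 1549, 123 and 142 CPM in control. Within control the highest library stood above the lowest by a wide margin, and both knockouts overlapped control. The log2 fold change was -1.16 (SE 0.73, edgeR adjusted p = 0.261) in Mettl3 KO and 0.74 (SE 0.70, edgeR adjusted p = 0.808) in Mettl14 KO tumors.

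**Figure D2:**
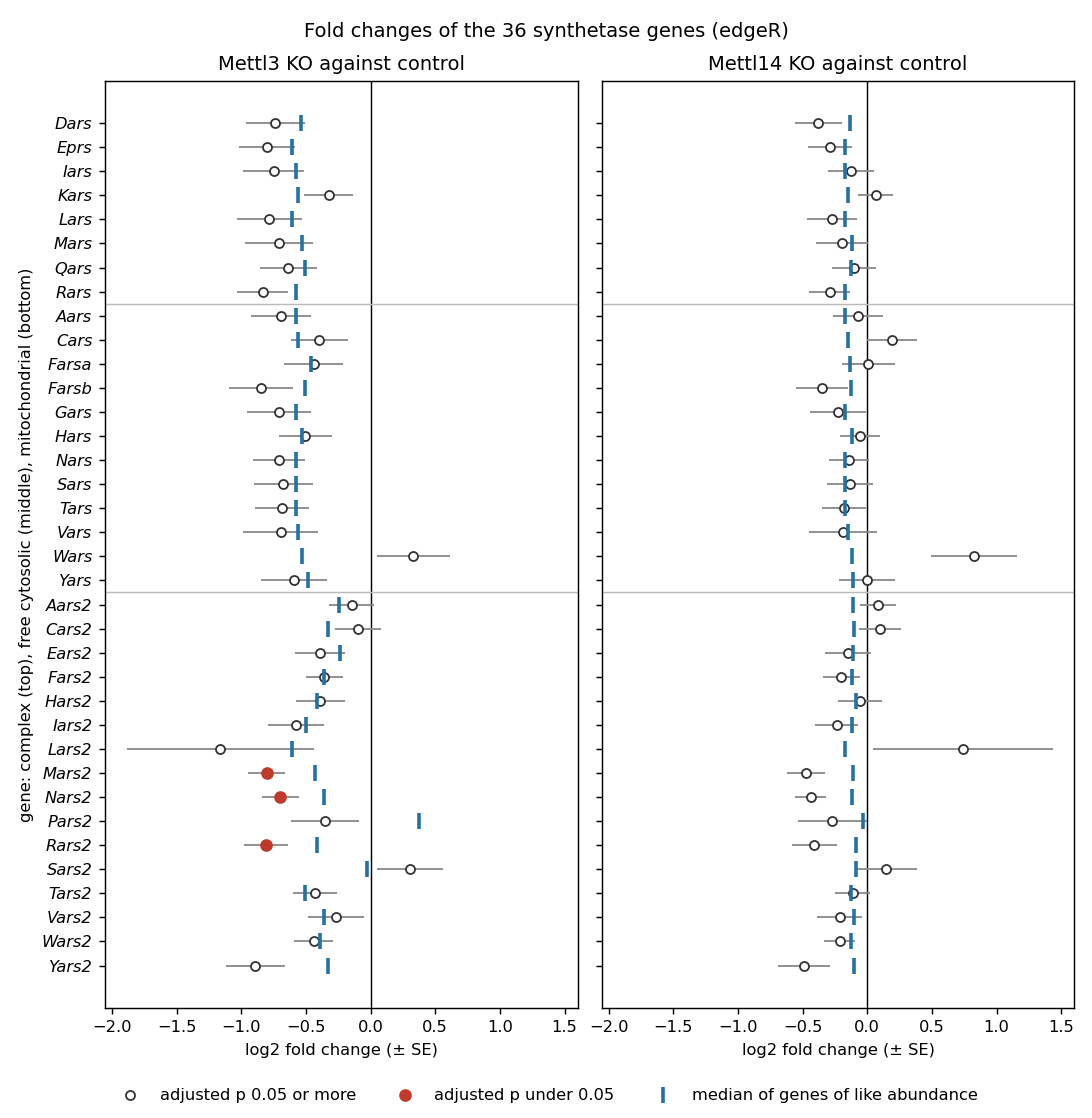
Log2 fold change (± SE) of the 36 synthetase genes in Mettl3 KO (left) and Mettl14 KO (right) tumors against control, by edgeR, with filled points for adjusted p under 0.05 and blue ticks for the median of genes of like abundance. Mars2, Nars2 and Rars2 are the filled points, Wars stands to the right of 0 in both panels at 0.33 and 0.83, and most other members lie near their tick.

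In Mettl14 KO tumors no member was called against control, and none of 21555 genes (0%) passed by edgeR. An unadjusted p under 0.05 was found for 5 of 36 members and 11.3% of all genes, and DESeq2 called 271 genes, 0 of them members. The median log2 fold change of the members was -0.17, with 28 of 36 below 0 against 60.8% of all genes. It was -0.01, with 18 of 36 below 0, when libraries were scaled by their totals alone, and -0.03 against genes of like abundance. No member's groups failed to overlap, against 0.682% of all genes that lay wholly higher and 0.701% wholly lower.

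The comparison shares its 5 control libraries with the Mettl3 KO comparison, so the values below are set side by side without a test between them. Mars2 had 32.6, 21.3, 32.6, 27.7 and 25.7 CPM in Mettl14 KO (-0.47, SE 0.15, edgeR adjusted p = 0.270). Nars2 had 18.4, 14.4, 18.3, 19.001 and 17.7 CPM (-0.44, SE 0.12, edgeR adjusted p = 0.228). Rars2 had 24.4, 19.3, 29.1, 29.9 and 26.1 CPM (-0.41, SE 0.17, edgeR adjusted p = 0.396). For all 3 genes the Mettl14 KO mean lay between the Mettl3 KO mean and the control mean, for Mars2 at 28.0 ± 4.84 CPM beside 22.6 ± 2.14 CPM in Mettl3 KO, against 37.9 ± 6.98 CPM in control. Yars2 had 16.1, 11.5, 17.1, 15.1 and 13.9 CPM in Mettl14 KO, below 4 of the 5 controls (-0.49, SE 0.20, edgeR adjusted p = 0.382). Without control replicate 1, Yars2 was the 1 member called, at -0.63 (edgeR adjusted p = 0.0433), among 1054 genes.

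Between the knockouts, Mettl3 KO against Mettl14 KO in a fit of all 15 libraries, no member and none of 24566 genes (0%) passed by edgeR. An unadjusted p under 0.05 was found for 11 of 36 members and 12.8% of all genes, and DESeq2 called 59 genes, 0 of them members. The log2 fold change was below 0 for 35 of 36 members, against 50.7% of all genes, with a median of -0.41, or -0.082 against genes of like abundance. No member lay wholly higher (1.65% of all genes) or wholly lower (1.87%). The largest differences were those of Lars2 at -1.82 (SE 0.73, edgeR adjusted p = 0.349), Iars at -0.58 and Aars at -0.58. Iars had 85.0, 173, 124, 109 and 213 CPM in Mettl3 KO, 242, 183, 266, 161 and 203 CPM in Mettl14 KO tumors, and 149, 238, 216, 248 and 275 CPM in control. Its Mettl3 KO replicates 1, 3 and 4 lay below all libraries of the other 2 groups (SE 0.24, edgeR adjusted p = 0.349). Aars, the alanyl-tRNA synthetase, had 144, 263, 196, 159 and 260 CPM in Mettl3 KO, 364, 247, 349, 301 and 269 CPM in Mettl14 KO tumors, and 221, 262, 256, 374 and 450 CPM in control. The same 3 Mettl3 KO libraries were its lowest (SE 0.23, edgeR adjusted p = 0.349). Exons of Aars overlap those of Exosc6 on the same strand, so its count of reads there is uncertain.

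Wars (ENSMUSG00000021266, chr12:108860030-108894174, minus strand) was the member set against the rest. It had 100.2, 89.7, 67.8, 122 and 126 CPM in Mettl3 KO, 222, 141, 106, 179 and 59.6 CPM in Mettl14 KO tumors, and 42.0, 55.8, 72.6, 98.9 and 116 CPM in control. The groups overlapped. Mettl14 KO replicates 3 and 5 and Mettl3 KO replicates 1, 2 and 3 lay inside the control range of 42.0 to 116 CPM. The other libraries of both knockouts lay above that range. By edgeR its log2 fold change was 0.33 (SE 0.28, adjusted p = 0.373) in Mettl3 KO and 0.83 (SE 0.33, adjusted p = 0.372) in Mettl14 KO tumors, and neither passed. It was above 0 in both comparisons in all settings tried, from 0.09 to 0.86 in Mettl3 KO and from 0.60 to 1.04 in Mettl14 KO tumors. Wars2, its mitochondrial partner, was at -0.44 (SE 0.15, edgeR adjusted p = 0.079) in Mettl3 KO and -0.21 (SE 0.12, edgeR adjusted p = 0.540) in Mettl14 KO tumors.

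The median of the other 19 cytosolic members was 132 ± 38.6 CPM in Mettl3 KO, 179 ± 28.1 CPM in Mettl14 KO tumors and 187 ± 50.1 CPM in control (SD, n = 5 each). Within each library, Wars was set against this median on the log2 scale. The difference was 0.21, -0.83, -0.87, 0.16 and -0.54 in Mettl3 KO, 0.09, -0.16, -1.0, 0.15 and -1.40 in Mettl14 KO, and -1.40, -1.79, -1.24, -1.10 and -1.08 in control. All 5 Mettl3 KO libraries lay above all 5 controls for Wars, and the same held for 2.03% of all genes treated the same way. It held for no other member. The other 19 cytosolic members set this median themselves, however, so as a set they could hardly rise against it. Their lack of a rise therefore cannot set Wars apart from them. In Mettl3 KO the difference held both a higher mean of Wars (101 against 77.0 CPM in control, with overlap) and a lower median (132 against 187 CPM). In Mettl14 KO, 4 of 5 libraries lay above all controls and replicate 5 lay within them, and 0.487% of all genes had no overlap. The group means differed by 0.95 between Mettl3 KO and control and by 0.86 between Mettl14 KO and control. Leaving out 1 library at a time gave 0.81 to 1.08 and 0.71 to 1.09. By level per kb, Wars ranked 3rd to 14th of the 20 cytosolic members in Mettl3 KO, 3rd to 17th in Mettl14 KO and 15th to 17th in control libraries. No p is given for these within-library differences, since the members were chosen with earlier results known.

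**Figure D3:**
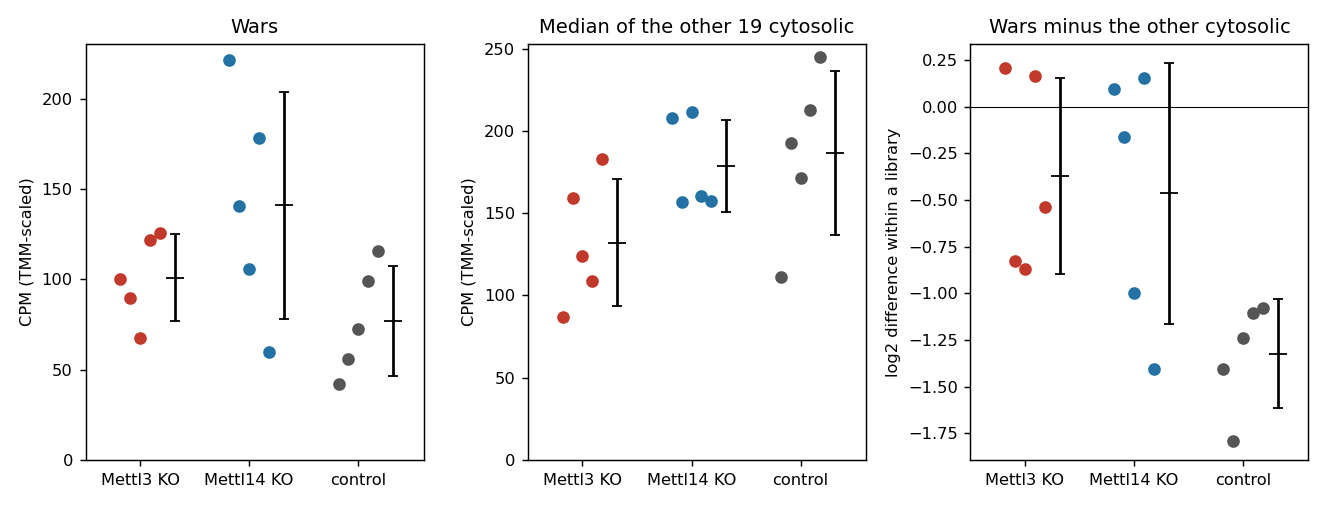
Wars (left, CPM), the median of the other 19 cytosolic synthetases (middle, CPM) and the log2 difference between them within a library (right), for the 5 libraries of each group in replicate order, with mean ± SD. In the right panel the Mettl3 KO libraries, -0.87 to 0.21, lie above the control libraries, -1.79 to -1.08, while 1 Mettl14 KO library, at -1.40, lies among them.

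The level of Wars was also compared with 6 interferon-response genes, among them those of the transcription factor Irf1, the guanylate-binding proteins Gbp2 and Gbp3, the peptide transporter subunit Tap1 and the immunoproteasome subunit Psmb9. Of these, 4 of 6 rose in Mettl3 KO tumors (edgeR; among them Irf1 at 1.23, Gbp2 at 2.04 and Gbp3 at 1.93), and 0 of 6 passed in Mettl14 KO tumors, where their median was 1.69. Their mean log2(CPM + 1) ran from 7.40 to 7.76 in Mettl3 KO, from 6.34 to 8.61 in Mettl14 KO and from 5.33 to 6.66 in control libraries. Every Mettl3 KO library thus lay above every control, with Mettl14 KO libraries on both sides of the gap between them. Across the 15 libraries Wars followed this mean with Pearson r = 0.783 and Spearman rho = 0.786, given as a description with no p, since Wars and the list were chosen with earlier results known and both measures differed between the groups. Without the 2 libraries farthest from the median, control replicates 1 and 5, r was 0.862. As deviations from group means, r was 0.777. A group holds 5 libraries, too few for a correlation within it, and the labels give no batch.

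For the other 35 members r ran from -0.59 (Nars2) to 0.40 (Sars2) with a median of -0.18, and 8 of 35 were positive. As deviations from group means it ran from -0.29 (Lars2) to 0.44 (Fars2) with a median of 0.15, and 29 of 35 were positive. Without control replicates 1 and 5 the highest was 0.707 (Sars2) and 10 of 35 were positive. T cell markers are set beside Wars, since lymphocytes are a known source of interferon: their summed level was 56.0 to 176 CPM in Mettl3 KO, 31.6 to 270 CPM in Mettl14 KO tumors and 12.2 to 47.0 CPM in control libraries. All 8 T cell markers had a positive fold change in both comparisons, and none was at 0 in every library. By edgeR 0 of 8 passed in either (8 and 6 with an unadjusted p under 0.05, against 32.3% and 11.3% of all genes). DESeq2 called 2 of the 2 with an adjusted p in Mettl3 KO and 2 of the 8 with one in Mettl14 KO tumors. Their part in the level of Wars was not tested.

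**Figure D4:**
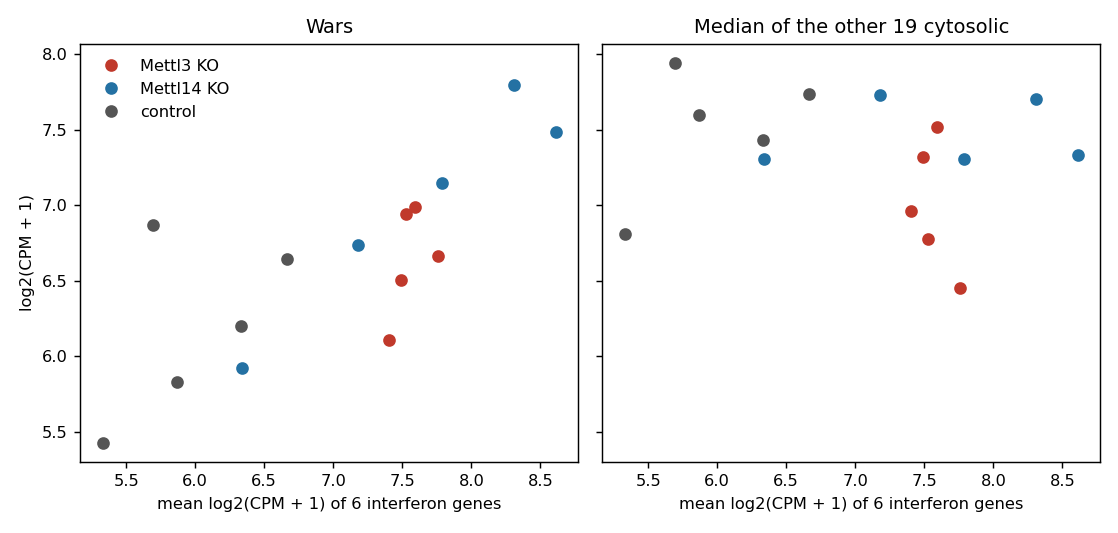
Each point is 1 library, with the mean log2(CPM + 1) of 6 interferon-response genes on the horizontal axis and, on the vertical axis, log2(CPM + 1) of Wars (left) or of the median of the other 19 cytosolic synthetases (right). Wars follows the interferon genes over the 15 libraries (r = 0.783), and the right panel shows no such slope.

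At the high end of reads outside genes, the other cytosolic members were low. The 4 libraries with the highest share of such reads were control replicate 1 (78.6%) and Mettl3 KO replicates 4, 1 and 3 (78.0%, 71.6% and 69.2%). They had the 4 lowest medians of the 19 cytosolic members, 111, 109, 86.6 and 124 CPM in the same order. The next libraries, Mettl14 KO replicate 2 at 65.9% and Mettl3 KO replicate 2 at 62.4%, had medians of 157 and 159 CPM. Below that the order was looser: control replicate 3, with the fewest reads outside genes (44.3%), had a median of 171 CPM, under Mettl3 KO replicate 5 (60.2%, 183 CPM) and Mettl14 KO replicate 3 (55.5%, 211 CPM). With this share as a covariate, 0 of 36 members were called in Mettl3 KO tumors and the members' median log2 fold change was -0.26. The part of these reads in the members' level was not tested beyond that fit.

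**Figure D5:**
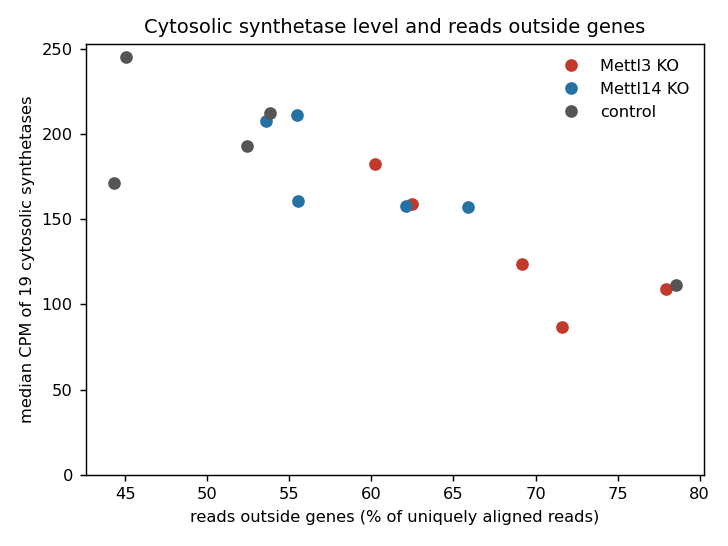
Median CPM of the 19 cytosolic synthetases other than Wars (vertical axis) against the share of uniquely aligned reads outside genes in percent (horizontal axis), 1 point per library. The 4 libraries on the right, 69.2% to 78.6%, are 3 Mettl3 KO libraries and control replicate 1, and they have the lowest medians.

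Genes of neighbouring steps were tested in the same fit. In Mettl3 KO tumors 0 of 3 scaffold proteins of the multisynthetase complex passed by edgeR (median -0.53, with Aimp1 at -0.91 and Eef1e1 at -0.53). Other enzymes of aminoacyl-tRNA handling gave 0 of 14 (median -0.35, with the peptidyl-tRNA hydrolase Ptrh2 at -0.78). Elongation factors that take charged tRNA to the ribosome gave 0 of 9 (median -0.61, with Eef1b2 at -0.95 and Eef1a1 at -0.92). The list of the ATF4 amino acid response gave 0 of 22, with a median of -0.69. The stress-induced transcription factor Atf3 stood at 1.37 and the pseudokinase Trib3 at -1.11 (edgeR adjusted p = 0.052 and 0.077). Growth genes linked to mTORC1 and Myc gave 0 of 10, with a median of -0.77, the nucleolar protein Npm1 at -0.90 and Myc itself at -0.82. An unadjusted p under 0.05 was found for 3, 8, 7, 14 and 10 genes of these 5 lists in the order given. The share over all genes was 32.3%. DESeq2 called 2, 3, 5, 9 and 8 genes, all lower, of 3, 12, 9, 21 and 10 with an adjusted p. Over all genes it called 3376 of 10277, 3199 of them as lower and 177 as higher. The medians of these lists each lay below that of all genes, and against genes of like abundance they lay between -0.23 and -0.07.

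Of 7 tested tryptophan enzymes and transporters, 1 rose by edgeR in Mettl3 KO tumors: Ido1, which breaks down tryptophan and is known as interferon-induced. It averaged 11.4 ± 5.53 CPM there, against 1.94 ± 1.37 CPM in control tumors (2.55, SE 0.52, edgeR adjusted p = 0.046). An unadjusted p under 0.05 was found for 4 genes of the list, against 32.3% of all genes. DESeq2 gave an adjusted p to 3 of its genes and called Ido2 as higher and Slc7a5 as lower, but not Ido1. In Mettl14 KO tumors Ido1 averaged 9.72 ± 8.55 CPM (2.29, SE 0.60, edgeR adjusted p = 0.220). No gene of these lists or of the interferon list passed by edgeR in Mettl14 KO tumors. There an unadjusted p under 0.05 was found for 6 interferon genes, 1 tryptophan gene and 5 genes of the other 5 lists. The share over all genes was 11.3%. DESeq2 called 5 interferon genes, Ido1 and Atf3, all higher, among 203 genes called as higher and 68 as lower. The medians in Mettl14 KO tumors were -0.21 for the scaffolds, -0.16 for the other enzymes, -0.23 for the elongation factors, -0.15 for the ATF4 list and -0.19 for the growth genes.

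Marker lists of other cells differed too. Erythroid markers summed to 21.7 to 60.9 CPM in Mettl3 KO, 26.7 to 59.9 CPM in Mettl14 KO tumors and 63.1 to 298 CPM in control, and 3 of 5 fell in Mettl3 KO tumors. Epithelial and colon carcinoma markers, of which none was at 0 in every library, summed to 53.5 to 112 CPM in Mettl3 KO, 83.3 to 169 CPM in Mettl14 KO tumors and 186 to 237 CPM in control. This sum was carried by Krt20, at 57.7 ± 27.3 CPM in Mettl3 KO, 103 ± 34.99 CPM in Mettl14 KO tumors and 187 ± 23.7 CPM in control, which fell in Mettl3 KO tumors (-1.76, edgeR adjusted p = 0.022). Of the 5 epithelial markers tested there, 3 had a positive fold change (Epcam, Krt8 and Cdh1, none called), and the median of the 5 was 0.52. DESeq2 gave an adjusted p to 2 epithelial markers there, Krt18 and Krt20, and called both as lower. Skeletal muscle markers summed to 29.0 to 720 CPM in Mettl3 KO, 4.12 to 34.2 CPM in Mettl14 KO tumors and 29.9 to 294 CPM in control. Of the markers of cytotoxic lymphocytes Klrk1 rose in Mettl3 KO tumors (1.92), and of those of macrophages Cd163 fell (-1.50). DESeq2 called Klrk1 as higher there, and the macrophage markers Cd163 and Mrc1 as lower. By edgeR 5 of 8 macrophage markers had a positive fold change, and the median of the 8 was 0.057. No marker of dendritic cells, neutrophils, B and plasma cells, endothelium, fibroblasts, keratinocytes, adipocytes or muscle passed by edgeR in Mettl3 KO tumors. There 4 dendritic cell, 1 neutrophil, 3 B and plasma cell and 2 endothelial markers had an unadjusted p under 0.05, against 32.3% of all genes. Of these lists, DESeq2 called the endothelial markers Cdh5 as lower and Vwf as higher. It gave an adjusted p to only 1 dendritic cell, 1 neutrophil, 1 adipocyte, 0 B and plasma cell and 0 keratinocyte markers. In Mettl14 KO tumors, where no gene passed by edgeR, DESeq2 called as lower all 5 tested muscle markers (median by edgeR -3.54, 5 with an unadjusted p under 0.05) and 4 of 5 erythroid markers (median by edgeR -1.97). It called as higher, beside the T cell markers, 2 each of the cytotoxic lymphocyte, dendritic cell and B and plasma cell lists. The part of these cells in the members' levels was not tested.

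In the authors' deposited table for Mettl3 KO, 7 of the 36 members had an adjusted p under 0.05, against 11.6% of the 16160 genes with one. Of the 7, Wars was the 1 listed as higher in the authors' deposited table, at 0.82 (SE 0.23, adjusted p = 0.00958). The authors' deposited table lists as lower Rars2 (-0.89), Rars (-0.75), Mars2 (-0.67), Eprs (-0.66), Nars2 (-0.65) and Nars (-0.57). In the authors' deposited table for Mettl14 KO, 0 of 36 members were under 0.05, against 2.98% of 16861 genes, and Wars stood at 0.84 (SE 0.30, adjusted p = 0.101). No source used here gives the settings of that table.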

How the data were processed

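The count tables hold raw read counts per Ensembl gene, deposited by the authors as 1 table per knockout. Both hold the same 5 control columns, which were identical and used once. Tools named in the submitters' processing notes are HTSeq 0.11.2, HISAT2 2.1.0, cutadapt 1.18 and DESeq2, and the build is mm10; per the labels' protocols, tumor RNA was depleted of ribosomal RNA and selected for poly(A), and read as single reads of 75 nucleotides. No source used here gives the strand setting or annotation release of the counting, so reads of overlapping genes are uncertain. Lines that name no gene took 56.8% to 86.2% of a library's reads and were not used. The authors also deposited log2 fold changes with standard errors, a base mean (a signal of normalised reads), a test statistic (a score), p-values and adjusted p-values, per the file headers. The 12 methylated RNA samples were not analysed here.

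Counts were fitted in R 4.3.3 with edgeR 4.0.16 (quasi-likelihood test): filterByExpr at a minimum count of 10, trimmed mean of M-values (TMM) scaling, robust dispersion, no covariate, and Benjamini-Hochberg adjustment over all genes at 0.05. Each knockout was fitted with control alone, and the knockouts were compared in a fit of 15 libraries. All 36 members passed the filter in each. CPM values are scaled by TMM over 15 libraries. Like abundance means 1 of 50 bins of average level. The fits were tested on simulated data. Gene positions and exons are those of GENCODE M21 (mm10). Each library counted as 1 sample. The 30 pairs of replicates differed beyond sampling noise, with chi-square per gene of 11.5 or more. This cannot tell whether each library came from a separate tumor or animal, since differences in library quality also enter it. Correlations used a pseudocount of 1 and are given with no p.

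Members and lists were chosen with earlier results of these data known. Named in full were Wars, members with an adjusted p under 0.05, and the 3 members with the largest fold change in each of 3 comparisons. Of a pathway list, called genes or else the 2 of largest change were named. The pathway lists were complex scaffolds, other aminoacyl-tRNA enzymes, elongation factors, ATF4, growth, interferon and tryptophan genes. Alternatives were other scaling (RLE, library totals), no filter, DESeq2 1.42.0, a replicate block, the share of reads outside genes as a covariate, all 15 libraries or the 2 knockouts alone, each library left out, and another pseudocount. The labels do not tie replicate numbers to an animal or day, so samples were not paired. Single values of some listed genes are not reported here.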

Additional observations from a re-analysis of the deposited data

Results flagged for a closer look

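In a group of 5 libraries, a value was marked where its gap to the nearest other library exceeded 0.71 of the group's range (Dixon's test). Of 123 groups of values tested, 7 were marked, and chance marks about 1 in 20. Control replicate 1 was low for Kars (111 CPM, other controls 164 to 183 CPM), Qars (46.7 CPM, others 86.3 to 98.8 CPM) and Hars2 (23.5 CPM, others 31.8 to 35.1 CPM). It was high for reads outside genes (78.6%, others 44.3% to 53.8%). Mettl14 KO replicate 2 was low for Farsb (50.98 CPM, others 72.0 to 78.6 CPM) and Nars2 (14.4 CPM, others 17.7 to 19.001 CPM). Mettl3 KO replicate 2 was high for Ears2, the mitochondrial glutamyl-tRNA synthetase (13.9 CPM, others 8.77 to 9.92 CPM). No cause of these values was tested.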

How the results depend on the processing

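The number of called members and genes depended on the processing, while the direction of the members' median did not, except that it was near 0 in Mettl14 KO tumors. In Mettl3 KO against control, where 3 members and 266 genes were called, RLE scaling gave 0 members and 100 genes, library totals 0 and 122, no filter 0 and 62, the covariate of reads outside genes 0 and 55, all 15 libraries 0 and 42, and DESeq2 17 and 3376. Leaving out 1 library gave 0 to 20 members and 35 to 11625 genes. The upper ends came without control replicate 1, and the other 9 fits gave 0 members and 35 to 65 genes. In Mettl14 KO against control, with 0 members and 0 genes called, no filter gave 47 genes, DESeq2 271 and all 15 libraries 50, with 0 members in each; leaving out 1 library gave 0 to 1 members and 0 to 1054 genes (148 without Mettl14 KO replicate 5, 6 without control replicate 2). Between the knockouts DESeq2 called 59 genes, and leaving out 1 library gave 0 to 1 genes and 0 members. Why these counts differ was not tested.

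Samples were not paired by replicate number, since the labels do not tie it to an animal or day. Deviations of same-numbered samples from their group means correlated at -0.75 to 0.62. These values cannot decide whether samples were paired, since differences in library quality also enter them. With the number as a replicate block, 21 members and 6002 genes were called in Mettl3 KO, 0 members and 14 genes in Mettl14 KO, and none between the knockouts.

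The members' median log2 fold change was -0.66 in Mettl3 KO, -0.12 against genes of like abundance, -0.26 with the covariate, and -0.79 to -0.37 with 1 library left out. It was -0.17 in Mettl14 KO (-0.22 to -0.04 with 1 library left out), and -0.41 between the knockouts (-0.082 against genes of like abundance, -0.58 to -0.26 with 1 library left out). Library totals moved the median of all genes in Mettl3 KO to 0.02 from -0.14. In Mettl14 KO, Aars (-0.07) was at 0.11 against genes of like abundance, 0.085 with library totals and -0.14 to 0.090 with 1 library left out, and Iars (-0.13) at 0.045 and 0.041 under the first 2. Wars against the other cytosolic members differed by 0.09 between Mettl3 KO and Mettl14 KO, by -0.16 when set against the mitochondrial members, and by -0.14 to 0.25 with 1 library left out. Its r with the interferon genes was 0.783 with a pseudocount of 0.5. For the 9 members described in full, 189 of the other values kept direction and side of the threshold, 15 lost the call, 8 gained it and 4 changed sign; with 1 library left out these were 237, 27, 5 and 1. In Mettl3 KO libraries Nars2 had 58 to 174 reads and Pars2 15 to 52, which limits the precision of their values.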
